A study of Mus musculus with 30 samples.

Results

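Grik2, Grm7 and Slc1a2 are genes of glutamate signalling. Grik2 encodes a subunit of kainate receptors, which are glutamate-gated ion channels. Grm7 encodes a metabotropic glutamate receptor of presynaptic terminals, and Slc1a2 encodes the main glutamate transporter of astrocytes. All rows whose gene symbol was one of these 3 were taken from 4 deposited tables of alternative splicing events. This gave 12 of 6491 entries, which are 8 of 4914 distinct events. Grik2 had 4 events, each listed in the tables of both cortical neuron classes, Slc1a2 had 2 in Emx1-Cre cells, and Grm7 had 2 in Purkinje tissue. The genes were chosen by their measured inclusion levels, since a table lists only events that passed the authors' thresholds, so the levels below are a description and were given no test of their own.

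The tables came from C57BL/6J mice, with 3 samples per group, 18 samples in 6 groups behind the tables used here. Emx1-Cre Nova2-cKO and wild-type Emx1-Cre cells, and Gad2-Cre Nova2-cKO and wild-type Gad2-Cre cells, were sorted from cortex at embryonic day 18.5. Pcp2-Cre Nova2-cKO and wild-type Pcp2-Cre samples were the dissected Purkinje cell layer of the cerebellum at postnatal day 28. A cKO is a conditional knockout of Nova2, and the wild-type groups, called controls here, carry the same Cre by their labels. The marker used for the sort is not named in the labels. Emx1-Cre is active in the lineage of excitatory cortical neurons, which also gives rise to cortical astrocytes, Gad2-Cre in inhibitory neurons and Pcp2-Cre in Purkinje cells. The dissected layer also holds cells without Cre, so its RNA is a mixture. The tables hold no expression values, so the purity of the sorts and the loss of Nova2 were not tested.

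Inclusion levels run from 0, where the alternative region is always skipped, to 1, where it is always used. Each group of 3 samples has 1 level, read here as pooled over them, which therefore comes without a replicate error, and library depth is unknown. Beside the levels stand the authors' FDR and their coverage of the event, which the labels and headers do not define. The lowest coverage listed was 20 in each table, and the median was between 52 and 88.5.

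NOVA2 is a neuronal protein that binds clusters of the RNA word YCAY, where Y is C or T in the DNA letters used here, and steers the use of nearby exons. The carboxyl-terminal tails of glutamate receptors and transporters lie inside the cell, where they bind scaffold and trafficking proteins, and in each of these 3 genes the tail is known to have splice variants.

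The listed exons lay at the 3' end of each gene's coding sequence. In GENCODE M21, an annotation on the same build as the tables (mm10), 4 of the 5 listed cassette exons of these genes are annotated, and each of the 4 holds the stop codon of a transcript annotated as protein coding. Among listed cassette exons of all 4 tables that belong to an annotated coding transcript, 29 of 952 did so (3.05%), and these 4, of which 2 lie in Grik2, are among the 29. The rule that chose the genes did not use this feature. Inclusion therefore gives, by the annotation, another carboxyl-terminal coding end than skipping does. The coding bases of each ending, up to and with its stop codon, are shown so that the alternative endings can be compared. They were read from the GENCODE transcripts, 5′ to 3′ in the sense of the RNA, and capitals mark YCAY words.
Grik2, 139-nt exon included: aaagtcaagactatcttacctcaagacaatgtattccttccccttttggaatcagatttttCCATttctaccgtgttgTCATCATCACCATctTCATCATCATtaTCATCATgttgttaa
Grik2, 87-nt exon included: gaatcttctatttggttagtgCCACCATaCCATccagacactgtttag
Grik2, both skipped: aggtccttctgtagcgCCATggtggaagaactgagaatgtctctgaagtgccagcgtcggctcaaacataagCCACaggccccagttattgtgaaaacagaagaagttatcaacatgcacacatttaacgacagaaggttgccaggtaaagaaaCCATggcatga
Slc1a2, 71-nt exon included: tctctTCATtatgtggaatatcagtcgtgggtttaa
Slc1a2, 71-nt exon skipped: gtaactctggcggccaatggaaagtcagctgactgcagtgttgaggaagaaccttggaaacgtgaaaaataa
Grm7, 92-nt exon included: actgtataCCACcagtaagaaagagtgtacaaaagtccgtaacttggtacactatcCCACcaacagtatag
Grm7, 92-nt exon skipped: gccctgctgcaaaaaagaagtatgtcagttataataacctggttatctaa

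In Grik2 (ENSMUSG00000056073, chromosome 10, minus strand), the endings follow a shared coding exon of 251 nt. The 139-nt exon (49103510 to 49103648) holds 117 coding bases, the 87-nt exon (49104979 to 49105065) holds 45, and the last exon holds 162 when both are skipped. The annotated protein has 893 residues with the 139-nt exon, 869 with the 87-nt exon and 908 with neither. In Slc1a2 (ENSMUSG00000005089, chromosome 2, plus strand), the 71-nt exon (102780717 to 102780787) holds 33 coding bases, and the last exon holds 69 when it is skipped, in a protein of 572 residues. The start of the annotated transcript with the 71-nt exon is incomplete, so the length of its protein is not given. In Grm7 (ENSMUSG00000056755, chromosome 6, plus strand), the 92-nt exon (111501510 to 111501601) holds 68 coding bases and gives a protein of 922 residues, and skipping leaves 47 coding bases in the last exon and 915 residues.

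**Figure D1:**
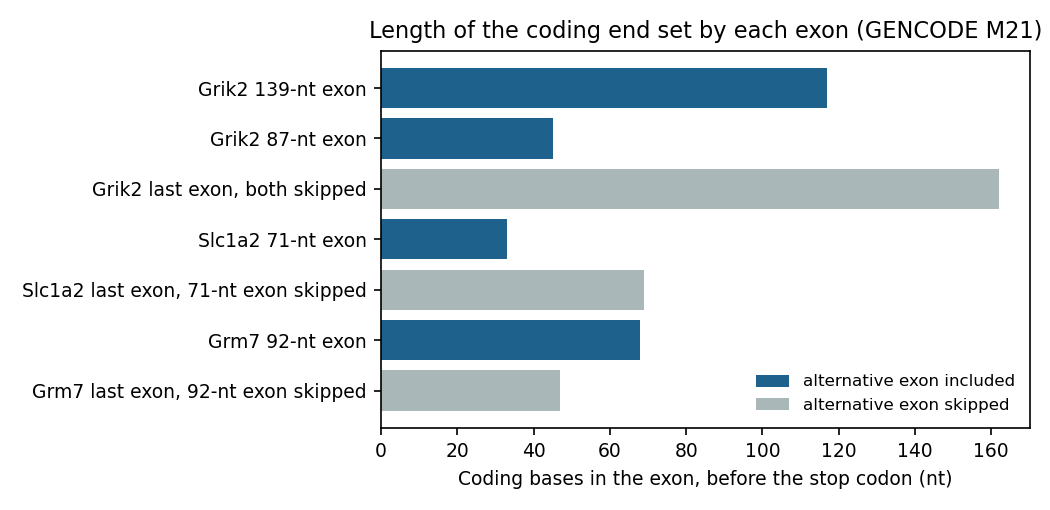
Coding bases (nt, horizontal axis) that each exon adds before its stop codon in GENCODE M21, for the alternative exons of Grik2, Slc1a2 and Grm7 (blue) and for the last exon used when they are skipped (grey). The included exon ends the protein sooner than the last exon in Grik2 (117 and 45 against 162 nt) and Slc1a2 (33 against 69 nt), and later in Grm7 (68 against 47 nt).

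In the single-exon forms the stop codon lay close to the end of the exon. The distance from stop codon to exon end was 19 nt for the 139-nt and 39 nt for the 87-nt exon of Grik2, 35 nt for the Slc1a2 exon and 21 nt for the Grm7 exon. Where the 87-nt exon of Grik2 is followed by the 139-nt exon, its stop codon lies 178 nt before the last exon junction. A GENCODE transcript has that form and is annotated as protein coding.

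In both cortical classes the 139-nt ending of Grik2 had a higher level in Nova2 cKO cells than in controls, and the 87-nt exon had a lower level relative to the 139-nt exon. In the authors' deposited table the level of the 139-nt exon, as a single cassette between the 251-nt exon and the last exon, was 0.765 in Emx1-Cre cKO and 0.136 in Emx1-Cre control neurons (FDR 1.32e-24, coverage 99.9). It was 0.605 in Gad2-Cre cKO and 0.0842 in Gad2-Cre control neurons (FDR 3.46e-29, coverage 161, also the authors' deposited table). The level of this event was thus low in both controls and above the middle of its range in both cKO groups. It sets the exon only against skipping, so the exon's share of all Grik2 RNA is not shown. The difference, cKO minus control, was 0.63 in Emx1-Cre and 0.52 in Gad2-Cre neurons. By size it ranked 59 of 912 and 67 of 726 among the listed cassettes of these tables.

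Relative to the 139-nt exon, the 87-nt exon was lower in cKO. As a cassette between the 251-nt and the 139-nt exon, its level in the authors' deposited table was 0.0482 in Emx1-Cre cKO and 0.385 in Emx1-Cre control neurons (FDR 2.65e-05, coverage 27.1). In Gad2-Cre neurons it was 0.101 in cKO and 0.687 in control by the authors' deposited table (FDR 2.55e-09, coverage 27.0). The difference of -0.59 in Gad2-Cre neurons ranked 30 of 726 listed cassettes, and that of -0.34 in Emx1-Cre neurons ranked 254 of 912. The coverage of this event was low in both tables, near the listing minimum of 20. Both forms of this event, as defined, hold the 139-nt exon. The junction from the 251-nt to the 87-nt exon also belongs to RNA that goes from the 87-nt exon to the last exon. How much such RNA adds to the level was not tested. No listed event sets the 87-nt exon alone against the form that skips both, so a change of the 87-nt ending itself is not shown.

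The direct exchange of these exons was listed as well. In the mutually exclusive event, the first-named isoform carries the 87-nt exon and the other the 139-nt exon, per the deposited genome intervals. Its level in the authors' deposited table was 0.0263 in Emx1-Cre cKO and 0.501 in Emx1-Cre control neurons (FDR 0.00021, coverage 30.2). The Gad2-Cre levels were 0.0596 in cKO and 0.590 in control, again the authors' values (FDR 0.000104, coverage 50.3). The level of this event was thus close to the middle of its range in both controls and near 0 in both cKO groups.

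**Figure D2:**
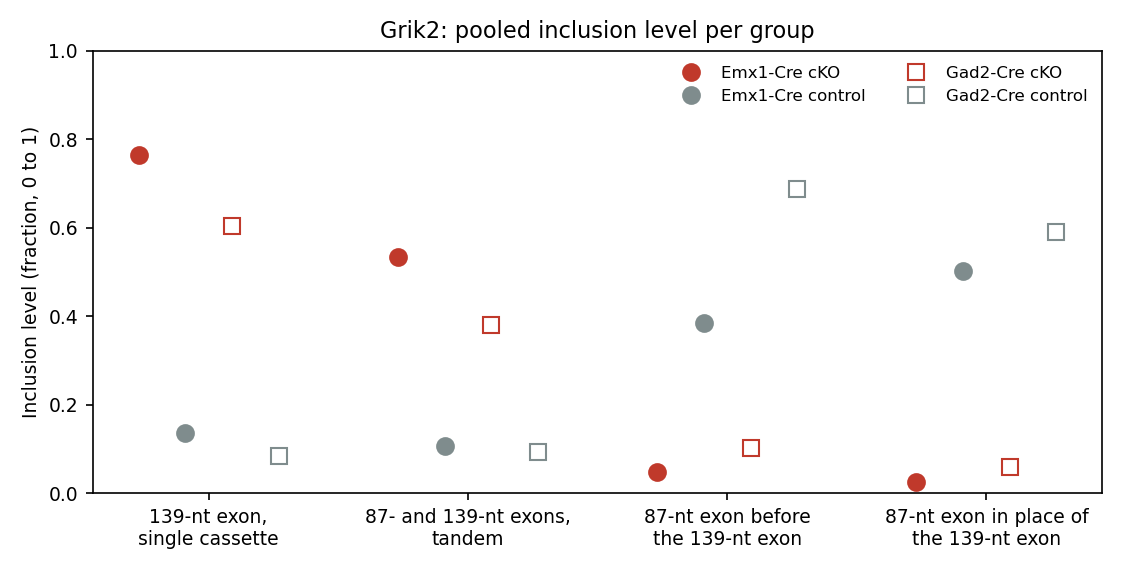
Pooled inclusion level (fraction, vertical axis) of the 4 Grik2 events in cKO (red) and control (grey) groups of Emx1-Cre (filled circles) and Gad2-Cre neurons (open squares), 1 pooled value per group with no error. The 139-nt exon as a single cassette and the tandem event are higher in both cKO groups. The levels of the 87-nt exon before the 139-nt exon and in place of it are lower.

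The fourth event, the 87-nt and 139-nt exons in tandem, had levels of 0.534 in Emx1-Cre cKO and 0.106 in control (FDR 1.37e-20), and of 0.381 in Gad2-Cre cKO and 0.0933 in control (FDR 6.65e-24), all in the authors' deposited table. If levels were shares of separate RNA forms, the single-exon levels would give a tandem level of 0.141 in Emx1-Cre cKO and 0.0902 in control, and of 0.147 in Gad2-Cre cKO and 0.168 in control. The deposited levels were 0.534 and 0.381 in the cKO groups, above those values. In the controls, 0.106 in Emx1-Cre was above and 0.0933 in Gad2-Cre was below. The levels thus disagree when read as shares, and which of them departs is not shown. The 87-nt level used here had a coverage of 27.1 in Emx1-Cre and 27.0 in Gad2-Cre neurons, against 103 and 178 for the tandem event. The tandem level is therefore not read as the share of RNA with both exons. The 4 events are built from the same 4 exons, so they describe 1 region and are not separate changes.

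All 4 Grik2 events were listed in both cortical tables and had the same direction in both, as did 97.4% of the 815 uniquely named events listed in both. Of uniquely named events, 30.5% of the Emx1-Cre table were also in the Gad2-Cre table, and 41.6% of the Gad2-Cre table were in the Emx1-Cre table. The cKO-minus-control differences of the 139-nt and tandem events were 0.11 and 0.14 larger in Emx1-Cre neurons, and the decreases of the 87-nt exon before the 139-nt exon and of the exchange event were 0.25 and 0.06 larger in Gad2-Cre neurons. These contrasts between classes were not tested, because pooled levels carry no spread.

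**Figure D3:**
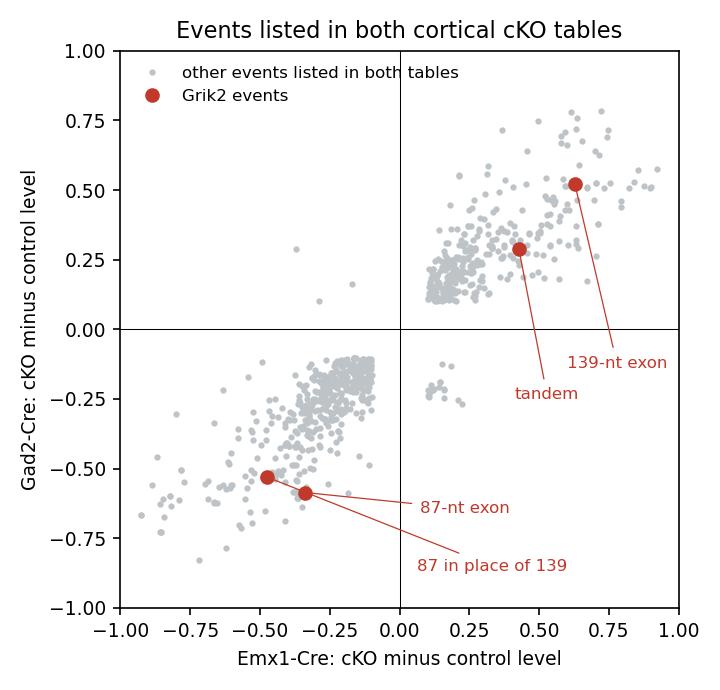
Difference in level, cKO minus control, of events listed in both cortical tables, in Emx1-Cre (horizontal axis) and Gad2-Cre neurons (vertical axis). Grey points are 811 other events and red points the 4 Grik2 events, of which 2 are positive and 2 negative in both classes; no difference under 0.1 in size is listed.

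Between the controls of the cortical classes, these exons were not listed as different. The table of Emx1-Cre against Gad2-Cre controls held 0 entries of the 3 genes among 1236. That is a statement about the authors' thresholds, since the control level of the 87-nt exon was 0.385 in Emx1-Cre and 0.687 in Gad2-Cre neurons, a difference of -0.30 at low coverage. The control levels of the 139-nt exon were 0.136 in Emx1-Cre and 0.0842 in Gad2-Cre neurons, a difference of 0.05. In the cKO groups they were 0.765 in Emx1-Cre and 0.605 in Gad2-Cre neurons, and no deposited table used here compares these groups with each other.

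Slc1a2 was listed in Emx1-Cre cells, with a higher level of its alternative exon in cKO. The level of the 71-nt exon was 0.309 in Emx1-Cre cKO and 0.0594 in Emx1-Cre control cells in the authors' deposited table (FDR 9.65e-07, coverage 101). A longer form of the same exon, of 214 nt, starts at 102780574 and ends at the same base. Its level was 0.172 in Emx1-Cre cKO and 0.0329 in control by the authors' value (FDR 2.64e-05, coverage 47.8). This longer exon is not a GENCODE exon, and both events share the skipped form and the downstream junction. The differences of 0.25 and 0.14 were modest among listed cassettes, where 46.5% and 80.9% were larger. The levels of both events were below the middle of their range in both groups.

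Slc1a2 is known as an astrocyte gene. It is 1 of the 7 astrocyte markers looked up, and it was chosen because it is listed, so its own listing says nothing about glia. No other astrocyte marker had an event in this table. Of 39 markers of all cell types, 2 were listed there, Slc1a2 and the inhibitory neuron marker Dlx1. Listing does not measure expression, and the part of glial RNA in this result was not tested. Neither the Gad2-Cre nor the Purkinje table listed Slc1a2, and the tables do not say whether an unlisted event fell short in coverage, FDR or difference.

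In Purkinje tissue the 92-nt exon of Grm7 differed between the groups. The table names them only as group 1 and group 2. The labels and headers do not say which of them is the cKO, so no direction with respect to Nova2 is given. The level was 0.737 in group 1 and 0.313 in group 2 in the authors' deposited table (FDR 0.000737, coverage 51.0). The tandem event of the 92-nt exon with a 122-nt exon (111508304 to 111508425), which is not a GENCODE exon, had 0.572 in group 1 and 0.190 in group 2 by the authors' value (FDR 0.00309). The differences, group 1 minus group 2, were 0.42 and 0.38. The first ranked 19 of 268 listed cassettes by size. Both events have the same coverage and share the first junction, so they are 1 observation in large part. Both were higher in group 1, as were 34.2% of the listed cassettes and tandem cassettes of this table.

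**Figure D4:**
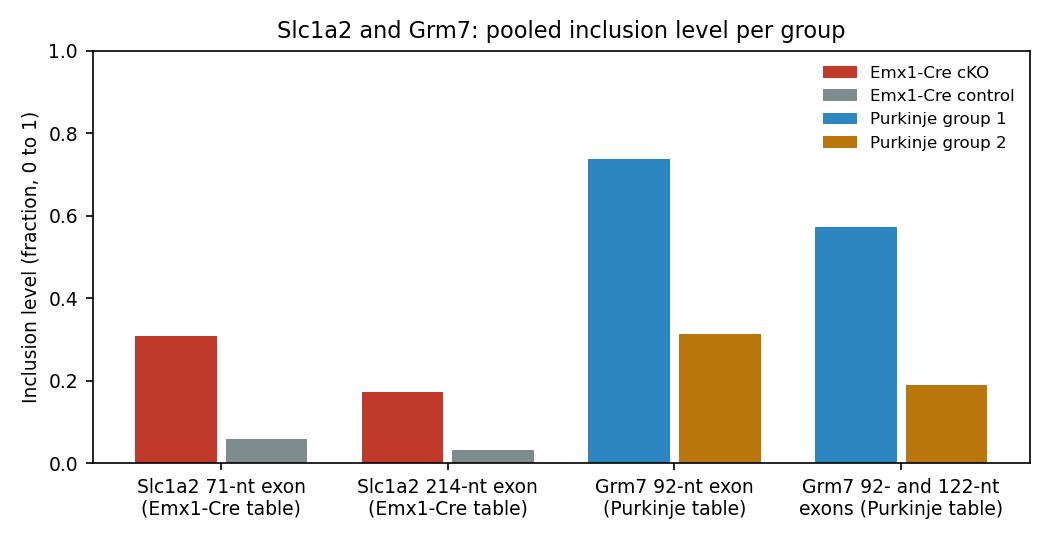
Pooled inclusion level (fraction, vertical axis) of the Slc1a2 events in Emx1-Cre cKO (red) and control (grey) cells and of the Grm7 events in Purkinje groups 1 (blue) and 2 (brown), 1 value per group with no error. Slc1a2 reaches at most 0.309, in cKO cells, and the Grm7 exon is at 0.737 in group 1 and 0.313 in group 2.

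By direction, 3 of the 4 cassette events of these genes in the Emx1-Cre table were higher in cKO, where 46.9% of listed cassettes were. In the Gad2-Cre table it was 1 of 2, where 36.2% were. With so few events, which overlap, nothing is read from these counts.

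The alternative exons differed in how many YCAY words they hold. The word was counted in each of its spellings with C or T at the ends, on the RNA strand only, overlapping words included. The 139-nt exon of Grik2 holds 10, or 7.19 per 100 nt, packed toward the end of its coding part as the capitals above show. Of 1020 listed cassette exons that match a GENCODE exon, 11 were as dense or denser (1.08%), this exon included, and the median was 1.37 per 100 nt. The 87-nt exon of Grik2 holds 3 (3.45 per 100 nt, with 13.3% as dense or denser). The Grm7 exon holds 2 and the Slc1a2 exon 1, which at 1.41 per 100 nt is close to the median, and 69.3% of the 1020 hold at least 1.

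Density in the exon did not go with a single direction. Of exons at least as dense as the 139-nt exon, 4 of 7 in the Emx1-Cre table were higher in cKO and 3 lower, and among Gad2-Cre events 5 of 8 were higher and 3 lower, Grik2 included. A word match is not a binding site, and the flanking introns were not searched.

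**Figure D5:**
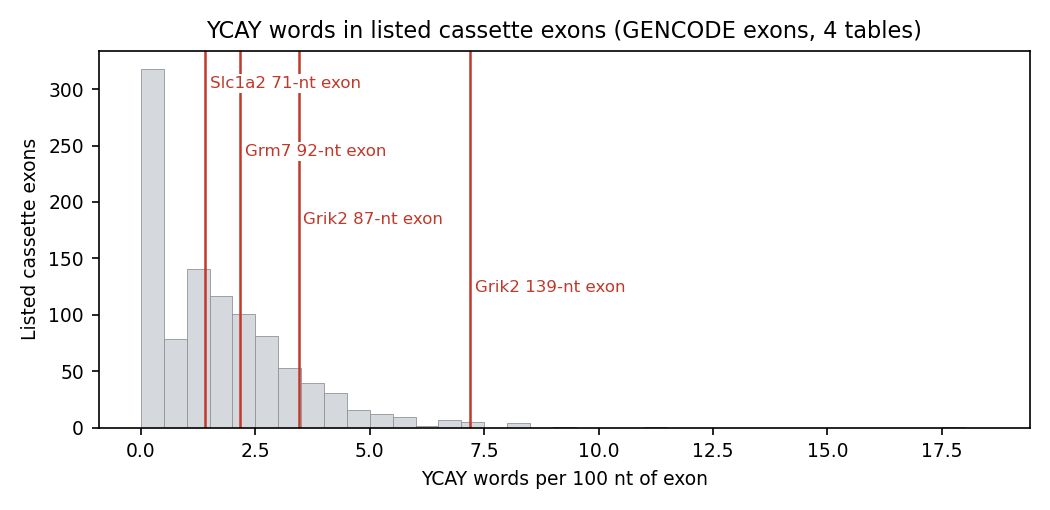
Number of listed cassette exons (vertical axis) by YCAY words per 100 nt of exon (horizontal axis), over 1020 exons of the 4 tables that match a GENCODE exon. Red lines mark the exons of Slc1a2 (1.41), Grm7 (2.17) and Grik2 (3.45 for 87 nt and 7.19 for 139 nt).

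Some other genes of glutamate signalling were listed as well. Of 48 genes of glutamate receptors, their auxiliary subunits and glutamate transporters, a total of 5 had an event listed for Emx1-Cre cells. By their largest event 4 were higher and 1 lower in cKO. The lower one was Grin1, the obligatory NMDA receptor subunit, with a 91-nt region at 0.392 in cKO and 0.875 in control by the authors' value (coverage 26). Its 63-nt exon went the other way in the authors' deposited table, at 0.392 in Emx1-Cre cKO and 0.0743 in control (FDR 0.0116), and was the Grin1 exon listed for Gad2-Cre cells, at 0.188 in cKO and 0.0609 in control. The higher ones were Grik2, Slc1a2 and the AMPA receptor subunits Gria2 and Gria4, the last 2 with differences of 0.17 and 0.16. For Gad2-Cre cells 6 of 48 were listed, 3 higher (Gria2, Gria4 and Grin1, by 0.12 to 0.18) and 3 lower (Gria1, Grik1 and Grik2). Grik2 counts as lower there because its largest event is the 87-nt exon, while its 139-nt exon was higher. In Emx1-Cre cells 9 of the 10 Gria2 events were higher and 1 lower. For Purkinje tissue 5 of 48 were listed, 2 higher in group 1 (Grik1 and Grm7) and 3 lower (Gria4, Grin1 and the kainate receptor auxiliary subunit Neto2). Of the 3 Grin1 events there, 2 were higher in group 1, and the largest, the 63-nt exon, was lower. Between controls 3 of 48 were listed, with Gria2 and the metabotropic receptor Grm5 higher in Emx1-Cre and Gria4 lower. How many of the 48 could have been listed is not known, since the tables hold only passing events. The counts include Grik2, Slc1a2 and Grm7, which were chosen because they are listed. No share over all genes could be set beside them, so nothing is read from the counts or their directions.

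Grik1, the paralog of Grik2, also had an exon of 87 nt directly after a 251-nt exon. This exon (chromosome 16, 87896809 to 87896895) was at 0.000284 in Gad2-Cre cKO and 0.467 in Gad2-Cre control neurons in the authors' deposited table (FDR 1.01e-19, coverage 35.1). In Purkinje tissue it was at 0.111 in group 1 and 0.000459 in group 2 by the authors' value (FDR 0.0469, coverage 25.2). Both coverages were below the medians of their tables, 64.0 for Gad2-Cre and 88.5 for Purkinje tissue, and 1 level of each pair was near 0. This level is counted against skipping to a downstream exon of 455 nt in the deposited interval, which is not a GENCODE exon. It is therefore not the same measure as that of the 87-nt exon of Grik2. The Grik1 exon is coding throughout in its annotated transcripts, unlike that of Grik2. Laid base by base without gaps, the 87-nt exons were identical at 27 of 87 positions (31%), while the 251-nt exons before them were identical at 188 of 251 (74.9%).

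By the distance between pooled levels, the cassette exons most like the 139-nt exon of Grik2 over the 4 cortical groups were in Sh2b1 (distance 0.119), Ptprz1 (0.124) and Gphn (0.125), of 181 other genes with a cassette in both cortical tables. Gphn encodes gephyrin, a scaffold of inhibitory synapses. For the 71-nt exon of Slc1a2, over 2 levels, they were in 2810408A11Rik (0.0241), Rab12 (0.0407) and Spag9 (0.0413) of 489 genes, and for the 92-nt exon of Grm7, over 2 levels, in Ccdc64 (0.0232), Mctp1 (0.0606) and Ralgapb (0.0736) of 155.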

How the data were processed

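Splicing was read from 4 tables of events that the authors deposited, quantified with Quantas on mm10 per the file names. Kallisto and edgeR appear in the submitters' processing notes without a role, and no source used here names the aligner. Per the file headers, inclusion levels are a fraction from 0 to 1, pooled over the 3 samples of a group, with the authors' p-value and FDR per event. The deposited coverage is a signal with 1 value per event. No listed FDR was above 0.05 and no difference below 0.1 in size. The deposited difference was group 1 minus group 2 in all 6491 entries, within 1e-06. Group order was taken from the table names in the labels, and control levels in the table of controls were the same in the matching cKO table for all 306 and 321 uniquely named shared events. The Purkinje table names no order. Not analysed here were 4 further groups with 12 samples. Depth is unknown, and whether samples are separate animals is not stated.

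Positions came from the deposited genome intervals, counted from 1, and coding ends and sequences from GENCODE M21 transcripts (GRCm38, the build of mm10), with Python 3.11.15 and numpy 2.4.6. The planned search of introns for YCAY needs a genome sequence, which was not used here, so exons alone were searched. The text names every listed event of the 3 genes, the listed genes of the fixed list by their largest event, and for each member the 3 genes with the nearest levels (Euclidean distance). Genes and lists were chosen with earlier results of these data known. The largest event of a list gene set its direction. No test was run, because the tables hold no value per sample. Alternatives were stricter FDR, difference and coverage limits, 1 event per gene, fewer event types and matching by overlap.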

Additional observations from a re-analysis of the deposited data

How the results depend on the processing

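Of 41 alternative values computed, 26 stayed within 1.5 times the reported count and 15 did not. Part of the 26 was fixed in advance, since the table of controls held 0 entries of these genes and a stricter limit leaves 0. A coverage of at least 50 left 3 of the 6 entries of these genes in the Emx1-Cre table, and 2 of the 4 Grik2 events listed in both cortical tables, both with the same direction. These are the 139-nt exon and the tandem event. The 87-nt exon before the 139-nt exon and the exchange event did not reach that coverage in both tables. With 1 event per gene, 2 entries remained in the Emx1-Cre, 1 in the Gad2-Cre and 1 in the Purkinje table.

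For the glutamate list, a difference of at least 0.2 left 3 genes in the Emx1-Cre, 2 in the Gad2-Cre, 1 in the Purkinje and 1 in the control table. A coverage of at least 50 left 3, 3 and 1 in the Emx1-Cre, Gad2-Cre and control tables, and an FDR of at most 0.01 left 1 in the control table. Counting stop codons of transcripts of any type, an alternative added after seeing the data, gave 94 of 952 exons in place of 29. Fewer events pass a stricter limit by construction. No replicate could be left out and no paired analysis was possible because the tables hold 1 pooled level per group. The intron windows for YCAY were not run.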
